A study of Mus musculus with 5 samples.

Results

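The 10 genes described here encode CXC and CX3C chemokines and the receptors of CXCL12, and were taken by symbol from the table of 51912 mouse genes that accompanies the study. They are the ligands Cxcl1, Cxcl2, Cxcl9, Cxcl10, Cxcl12, Cxcl14, Cxcl16 and Cx3cl1, and the receptors Cxcr4 and Ackr3. RNA sequencing libraries came from C57BL/6 mice, 2 after sham surgery and 3 after stroke, made by a filament that closed the middle cerebral artery during 30 minutes and accepted when laser Doppler flow dropped by at least 80%. Motor deficits were scored after 24 hours, and the labels do not state the tissue, the sampling time, or whether a library is 1 mouse or a pool. Both groups are of the same strain, with no genetic alteration named in the labels. The study concerns TRIM9, a ubiquitin ligase of brain, and inflammation after stroke, and the comparison asks which chemokine transcripts differ after stroke.

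Chemokines are small secreted proteins that guide leukocytes along concentration gradients through receptors coupled to G proteins. CXC chemokines that carry the motif glutamate-leucine-arginine before their cysteines, such as CXCL1 and CXCL2, attract neutrophils through CXCR2, while CXCL9 and CXCL10 are induced by interferons and attract T cells through CXCR3. CXCL12 is made constitutively in brain and signals through CXCR4, while ACKR3 binds and removes it. CX3CL1 is displayed on neurons and is read by CX3CR1 on microglia.

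The stretches before the transcript starts of Cxcl1, Cxcl2 and Cxcl10 are shown because these genes had the 3 largest fold changes among the 10. Matches to the NF-kB binding consensus (kappaB) also fell only before these 3 among the 9 members with a promoter in the RefSeq table. Cxcl16, next by fold change, had no promoter there and was not searched. Each stretch shown is the 250 bases upstream of the RefSeq start on GRCm38.p6, written 5′ to 3′ on the strand of the gene, with matches in capitals. Cxcl1 lies at chr5:90890995-90891244 on the plus strand, Cxcl2 at chr5:90903649-90903898 on the plus strand, and Cxcl10 at chr5:92348890-92349139 on the minus strand. The capitals mark kappaB matches, which overlap on both strands in Cxcl1 and Cxcl2, and in Cxcl10 also the first block, which matches the core of the interferon-stimulated response element.
Cxcl1: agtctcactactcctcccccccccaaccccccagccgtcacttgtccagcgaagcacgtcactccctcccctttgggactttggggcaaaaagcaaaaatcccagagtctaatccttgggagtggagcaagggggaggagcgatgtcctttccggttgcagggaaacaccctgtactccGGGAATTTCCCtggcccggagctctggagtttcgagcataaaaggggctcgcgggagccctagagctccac
Cxcl2: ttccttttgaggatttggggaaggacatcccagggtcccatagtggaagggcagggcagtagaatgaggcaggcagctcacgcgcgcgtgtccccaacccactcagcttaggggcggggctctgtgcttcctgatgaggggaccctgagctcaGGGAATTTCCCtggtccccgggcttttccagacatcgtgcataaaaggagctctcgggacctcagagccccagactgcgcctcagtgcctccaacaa
Cxcl10: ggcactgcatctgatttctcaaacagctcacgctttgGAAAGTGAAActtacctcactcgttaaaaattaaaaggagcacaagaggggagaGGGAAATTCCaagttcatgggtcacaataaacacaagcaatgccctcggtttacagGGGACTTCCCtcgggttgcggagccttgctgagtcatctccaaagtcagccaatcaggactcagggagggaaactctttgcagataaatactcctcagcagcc

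Cxcl1 and Cxcl2 share the 14 bases gggaatttccctgg, at -71 to -58 in Cxcl1 and -97 to -84 in Cxcl2, counted back from -1 at the base before the start. That stretch was the longest common to both windows, and its first 10 bases, GGGAATTTCC, were present on either strand in 0.0852% of 32851 promoter windows of the same length. The kappaB consensus as a whole matched 3.90% of those windows. Cxcl10 had kappaB matches at -159 to -150 and at -103 to -94. Its interferon element core, a pair of GAAA blocks with 2 bases of any kind between them, lay at -213 to -204 and was found in 2.98% of all windows. Cxcl14 was the other member with that core, at -172 to -163. The other motifs searched, each on both strands, were TATAAA (12.4% of windows; Cxcl9, Cx3cl1, Cxcr4 and Ackr3), the interferon-gamma element TTCNNNGAA (7.02%; Cxcl14) and the hypoxia element core ACGTG (16.6%; Cxcl1). The decamer is 1 form of the kappaB consensus, so each of its matches lies on a kappaB match. These matches are letters in a window and do not show that a factor binds there.

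**Figure D1:**
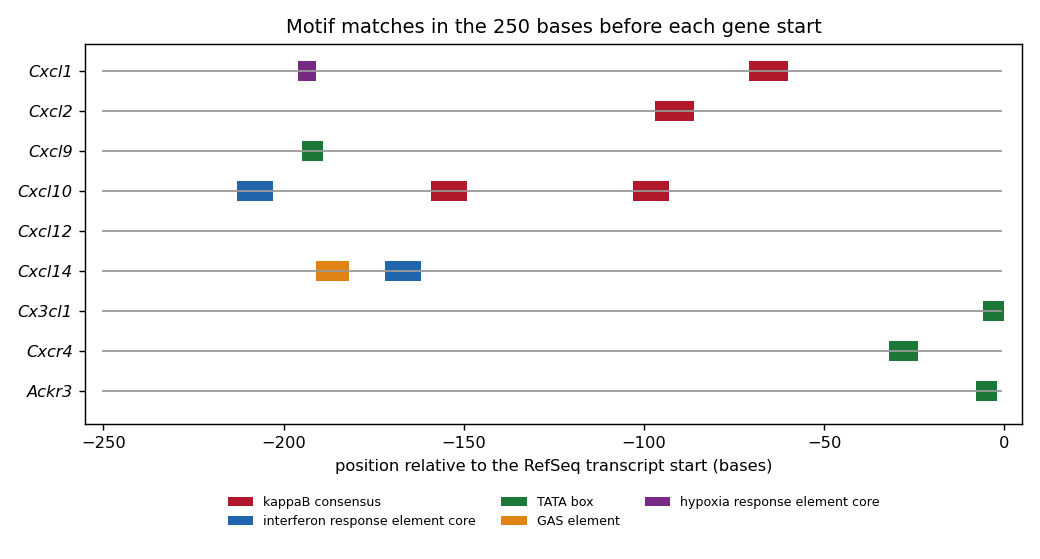
Matches to 5 named motifs in the 250 bases before the RefSeq start of 9 members (horizontal axis, bases from the start; boxes, matches on either strand). The kappaB matches (red) lie before Cxcl1, Cxcl2 and Cxcl10, and none of the searched motifs lies before Cxcl12. Cxcl16 was not searched.

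Reads per library are not listed in the deposited table, but were recovered as whole numbers for 9 of the 10 members from the authors' mean, fold change and standard error. They are given as normalized counts, that is reads divided by the size factor of the library. Stroke libraries are called A, B and C by falling size factor, and the 2 sham libraries the deeper and the shallower, because nothing ties them to the replicate numbers. Size factors ran from 0.734 in the shallower sham to 1.16 in stroke A, and 273066 to 330185 reads per library fell in the 7971 genes of low or middle abundance that were recovered. The labels name no separate cultures or litters, so the tests measure the spread between these libraries. The deeper sham stood apart by its choroid plexus, hypothalamic and thalamic markers. Its 9 recovered choroid plexus markers summed to 2385 normalized counts, against 256 in the shallower sham and 429 to 493 in stroke. Its 10 hypothalamic markers summed to 2515, against 101 in the shallower sham and 209 to 1132 in stroke. The 1132 was stroke A, where Pomc alone had 934, against 495 in the deeper sham and 19.4 and 174 in stroke B and C. Pomc, Crh and Agrp of that list were not highest in the deeper sham. Its 5 recovered thalamic markers summed to 2081, against 627 in the shallower sham and 757 to 941 in stroke. The authors' deposited table calls Ttr, Folr1, Oxt and Tcf7l2 of these lists lower in stroke. Folr1, Oxt and Tcf7l2 were 111, 205 and 1238 in the deeper sham, against 5.45, 1.36 and 252 in the shallower. All 10 neuron and all 10 astrocyte markers had an adjusted p in the authors' deposited table.

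No member passed an adjusted p of 0.05 in the authors' deposited table, where 1.56% of 17420 tested genes did, that is 0.775% higher and 0.786% lower in stroke. Adjusted p-values were given for 8 members, since Cxcl2 and Cxcl9 fell below the smallest mean that received one, 9.19. At an unadjusted p below 0.05 there were 4 members, Cxcl1, Cxcl2, Cxcl10 and Cxcl16, all higher in stroke. Of all genes with a p-value, 6.37% were below it in either direction and 2.73% higher in stroke. All genes with a p-value include many with 1 read in all, too few for a low p, so the members' count is not read against these shares. By limma on recovered reads 0 of 8 members passed as well, and so did 0 of all 7948 genes entered. Cxcl1 and Cxcl10 had an unadjusted p below 0.05 in limma with 1 added to the counts. With 5 added, Cxcl10 had an unadjusted limma p of 0.0681. The share of all genes below 0.05 in limma was not counted, so nothing is read from these members being below it. The 8 tested members had a median log2 fold change of 0.50, against -0.02 over all tested genes. Of the 9 members with recovered reads, every stroke library lay above both sham libraries in 5, which were Cxcl1, Cxcl2, Cxcl10, Cxcl16 and Ackr3, and below both in none. Among the 7994 recovered genes with a mean of at least 5 the shares were 9.88% above and 16.6% below. Cxcl1, Cxcl2 and Cxcl10 reached that mean through stroke alone, with sham means of 2.27, 0 and 4.54, so the members' count is a description and is not read against these shares. With 2 against 3 libraries an exact permutation test of 1 gene cannot give a p under 0.1.

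**Figure D2:**
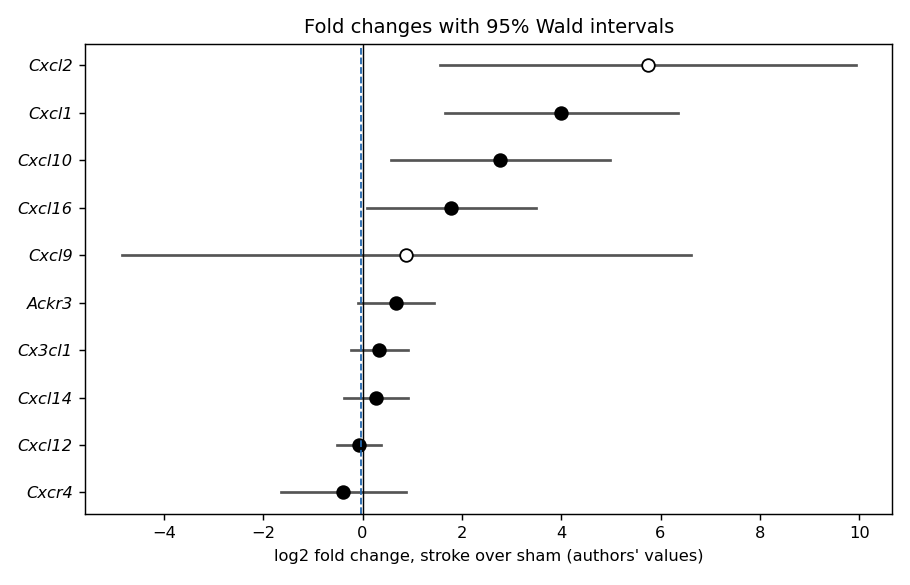
Log2 fold change of stroke over sham in the authors' deposited table (horizontal axis) for the 10 members, with 95% Wald intervals from the authors' standard errors. Filled points have an adjusted p, open points do not, the dashed line is the median of all tested genes, -0.02, and intervals are wide for the rare ligands and narrow for Cxcl12.

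The neutrophil attractants were near or at 0 reads in sham and present in every stroke library. Cxcl1 (ENSMUSG00000029380, chromosome 5, 90891241 to 90893115) had 8, 55 and 63 reads in stroke A, B and C, against 3 in the deeper sham and 1 in the shallower. In normalized counts these were 6.91, 48.6 and 56.4 against 3.18 and 1.36. All 3 stroke libraries lay above both shams, and stroke A stood far below stroke B and C, at 3.05 times the sham mean. The authors' deposited table gives Cxcl1 a log2 fold change of 4.00 with an SE of 1.19, or 16-fold. Its adjusted p of 0.0508 there, from a DESeq2 Wald test, lay just above the threshold. The 95% interval of that log2 fold change ran from 1.66 to 6.34.

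Cxcl2 (ENSMUSG00000058427), which encodes the related attractant MIP-2, lies 10755 bases from Cxcl1, at 90903871 to 90905938 on chromosome 5. It had 1, 16 and 23 reads in stroke A, B and C, and 0 reads in both sham libraries. Stroke A again lay nearest to sham, with 1 read. The mean normalized count in stroke was 11.9 ± 10.1 (SD, n = 3). That mean was 6.64 times the level of 1.79 that 3 reads over both sham libraries would give. Stroke A, at 0.864, lay below that level, and stroke B and C, at 14.1 and 20.6, lay above it. The fitted value of 5.75 on the log2 scale (SE 2.13) in the authors' deposited table rests on a group at 0 and is no bound. Without stroke A its difference in mean log2(normalized reads + 1) was 4.18, and without stroke C 2.41, against 3.08 with all libraries. The size of this difference depends on the number added, since sham is at 0. With all libraries it was 3.91 when 0.5 was added and 1.51 when 5 was added. With p-values adjusted over every row that had one, Cxcl2 had an adjusted p of 0.335 and Cxcl1 of 0.0924 in the Wald test.

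Of the interferon-inducible pair, Cxcl10 was detected in all libraries and Cxcl9 hardly at all. Cxcl10 (ENSMUSG00000034855, chromosome 5, 92346638 to 92348889) had normalized counts of 8.64, 16.8 and 69.0 in stroke A, B and C, against 6.35 in the deeper sham and 2.73 in the shallower. Stroke C alone held 73.1% of the summed stroke level, and stroke A exceeded the deeper sham by 10 reads to 6. The authors' deposited table gives it a log2 fold change of 2.77 and an SE of 1.13, with an adjusted p of 0.262. Without stroke C, the difference in mean log2(normalized reads + 1) was 1.32, against 2.13 with all libraries. Cxcl10 shares 133 exonic bases with Art3 on the other strand. Whether the counting used strand is not given in the sources used here, and the log2 fold change of Art3 was -0.05, with an SE of 0.44, in the authors' deposited table.

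Cxcl9 (ENSMUSG00000029417, chromosome 5, 92321347 to 92328079), 18558 bases from Cxcl10, had 4 reads in the 3 stroke libraries together and 1 in the 2 sham libraries. The depth does not allow a comparison, and the authors' log2 fold change of 0.88 has an SE of 2.92. The 14 tested genes of the interferon axis list included no called gene in the authors' deposited table, with a median log2 fold change of 0.19 and 8 of 14 positive. Ifng and Ifnb1, the interferon ligands on that list, were listed at 0 in all libraries. Ifit1, an antiviral effector, came nearest, with 128, 85.8 and 105 normalized counts in stroke against 48.7 and 36.8 in sham (log2 fold change 1.31, SE 0.43, adjusted p = 0.0958). Of the 11 recovered genes of the axis, 8 were lowest in stroke A and highest in stroke C among stroke libraries, beside 27.4% of all 7994 recovered genes. Gbp2, an interferon-inducible GTPase, shared the order of Cxcl10, with 71.7, 97.2 and 262 in stroke A, B and C against 82.6 and 45.0, and its groups overlapped. Ifnar1 and Ifngr2, the most abundant members of the axis without a call, differed by -0.24 (SE 0.24) and by -0.03 (SE 0.24) on the log2 scale.

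CXCL16 and CX3CL1 are the chemokines made with a membrane anchor, from which proteases release a soluble form. Cxcl16 (ENSMUSG00000018920, chromosome 11, 70453983 to 70459984) had normalized counts of 19.9, 28.3 and 124 in stroke A, B and C, against 16.9 and 16.4 in sham. The sham libraries were close together, and stroke A was 1.19 times their mean, against 7.43 times in stroke C. The log2 fold change was 1.78, with an SE of 0.87 and an adjusted p of 0.426. Without stroke C the difference in mean log2(normalized reads + 1) was 0.49, against 1.27 with all libraries. Cxcl16 shares 552 exonic bases with Zmynd15 on the opposite strand, which had 6.91, 6.19 and 17.0 in stroke against 19.1 and 2.73 in sham.

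**Figure D3:**
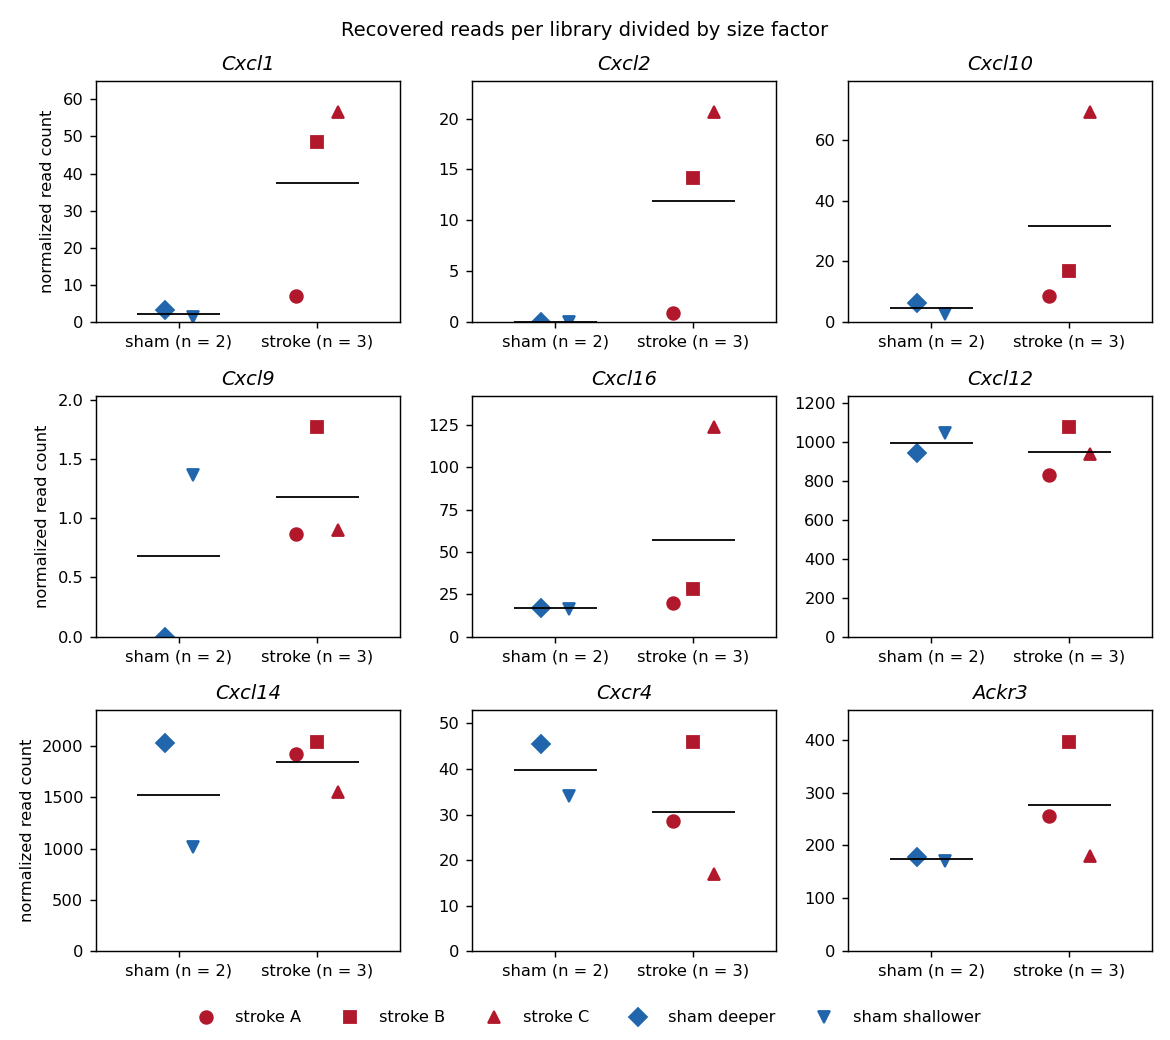
Normalized read counts (vertical axes, each from 0) of the 9 members with recovered reads in the 2 sham libraries (blue) and 3 stroke libraries (red), with the mean of each group as a black line. Stroke A is the lowest stroke library for Cxcl1, Cxcl2, Cxcl10 and Cxcl16, while Cxcl12 overlaps between groups at 832 to 1077.

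Cx3cl1 (ENSMUSG00000031778, chromosome 8, 94772009 to 94782427) was by far the most abundant member, with a mean normalized count of 14984 over all libraries in the authors' deposited table. Its reads per library were not recovered. The log2 fold change was 0.34 (SE 0.29, adjusted p = 0.824), with a 95% interval from -0.23 to 0.91. Its receptor Cx3cr1, a microglial gene, had 404, 545 and 1165 normalized counts in stroke A, B and C, against 906 in the deeper sham and 327 in the shallower. The groups overlapped over a wide range, and the log2 fold change was 0.19 (SE 0.53, adjusted p = 0.976). Adam10 and Timp3, a sheddase of both anchored chemokines and an inhibitor of sheddases, were the most abundant of 8 tested proteases and inhibitors, and differed by -0.19 (SE 0.30) and 0.31 (SE 0.27) on the log2 scale. None of the 8 was called, and their median log2 fold change was -0.13. Adam17, the other sheddase, had 256, 352 and 427 in stroke against 368 and 352 in sham.

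Of the CXCL12 axis, the ligand overlapped fully between groups. Cxcr4 overlapped as well, while for Ackr3 every stroke library lay above both sham libraries. Cxcl12 (ENSMUSG00000061353, chromosome 6, 117168535 to 117181367) had 832, 1077 and 936 normalized counts in stroke A, B and C, against 943 in the deeper sham and 1048 in the shallower. The mean in stroke was 948 ± 123 (SD, n = 3) against 995 in sham. The log2 fold change of -0.07 (SE 0.22, adjusted p = 0.984) had a 95% interval from -0.51 to 0.37, the narrowest among the members. The sign of this small difference turned without stroke A (0.01) and without the shallower sham (0.00011), and when libraries were scaled by the summed reads of recovered genes (0.20), a scaling that raised the median of all 7994 recovered genes by 0.25.

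Cxcr4 (ENSMUSG00000045382, chromosome 1, 128588199 to 128592293), the signalling receptor, had 28.5, 46.0 and 17.0 normalized counts in stroke A, B and C, against 45.5 and 34.1 in sham. Stroke B was as high as the deeper sham and stroke C the lowest of all 5 libraries. The log2 fold change was -0.39 (SE 0.64, adjusted p = 0.947). Ackr3 (ENSMUSG00000044337, chromosome 1, 90203980 to 90216751), the scavenging receptor, had 255, 396 and 180 in stroke against 178 and 170 in sham. All stroke libraries lay above both shams, and stroke C was 1.03 times the sham mean. Its log2 fold change was 0.67 (SE 0.39, adjusted p = 0.594). Without stroke B the difference in mean log2(normalized reads + 1) of Ackr3 was 0.30, against 0.59 with all libraries. For Ackr3 and Cxcr4 stroke B was the highest stroke library and stroke C the lowest, the reverse of the rank of stroke C for Cxcl10 and Cxcl16.

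Among 18 tested genes of signalling below these receptors none was called, with a median log2 fold change of 0.13. Rgs2, a brake on G protein signalling, came nearest (log2 fold change 0.76, SE 0.24, adjusted p = 0.0691). Rgs1, another such brake, had 18.2, 22.1 and 22.4 in stroke against 4.23 and 5.45 in sham, so that the groups did not overlap (log2 fold change 2.12, SE 0.89, adjusted p = 0.284). Arrb1 and Rac1, the most abundant of the list, differed by 0.03 (SE 0.18) and 0.27 (SE 0.19) on the log2 scale.

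Cxcl14 (ENSMUSG00000021508, chromosome 13, 56288643 to 56296551), a chemokine expressed by cortical interneurons, differed more between the sham libraries than between the groups. It had 1925, 2041 and 1555 normalized counts in stroke A, B and C, and in sham 2027 (deeper) and 1021 (shallower). The deeper sham lay within the range of stroke and the shallower below it, and the shams were 1.99-fold apart. The log2 fold change was 0.27 (SE 0.33, adjusted p = 0.914). Without the deeper sham, Cxcl14 passed in limma with a difference of 0.84 (adjusted p = 0.00576), a setting in which 1752 of 7948 genes passed. Without the shallower sham the sign turned, to -0.15 (adjusted p = 0.671). The part that the marker difference between the sham libraries has in this result was not tested.

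**Figure D4:**
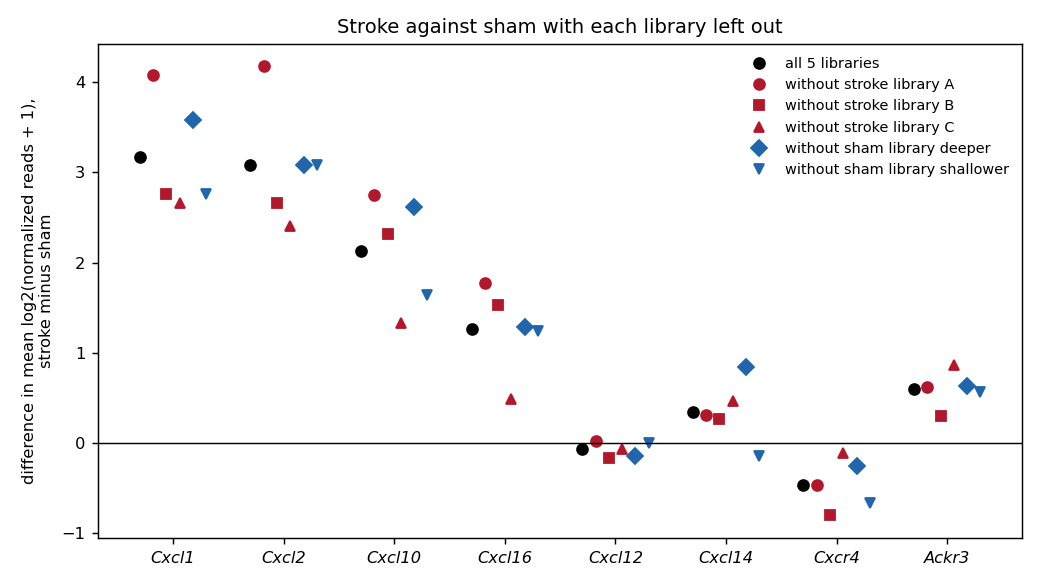
Difference between stroke and sham in mean log2(normalized reads + 1) for 8 members, with all 5 libraries (black) and with each library left out in turn (red, a stroke library left out; blue, a sham library left out). Cxcl1, Cxcl2, Cxcl10, Cxcl16 and Ackr3 stay above 0 in each case, and Cxcl14 lies between -0.15 and 0.84.

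Per kilobase of annotated exon, the mean level pooled over both groups ordered the members as Cx3cl1 (3813 normalized counts per kilobase), Cxcl14 (938), Cxcl12 (118), Ackr3 (70.4), Cxcr4 (18.9), Cxcl16 (13.6), Cxcl1 (12.4), Cxcl10 (9.19), Cxcl2 (3.44) and Cxcl9 (0.324). Cx3cl1 stood above 99.2% of tested genes by this measure, and Cxcl14 above 94.0%. Cxcl1 stood above 17.0% and Cxcl10 above 12.6%. Cxcl14, Cxcl12 and Ackr3 kept this order in the mean of each group, and the rarer members did not. In stroke Cxcl1 had 19.9 ± 14.2 normalized counts per kilobase (SD, n = 3), Cxcl16 19.0 ± 19.1, Cxcr4 16.9 ± 8.06 and Cxcl10 14.0 ± 14.5, which differ by less than their spread. In sham the means were 22 for Cxcr4, 5.51 for Cxcl16, 2.02 for Cxcl10 and 1.21 for Cxcl1. The sham libraries of Cxcl10, at 2.82 and 1.21, and of Cxcl1, at 1.69 and 0.727, overlapped. The SE of the log2 fold change of Cxcl1 was larger than that of 97.0% of tested genes.

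Of 8 members recovered with a mean of at least 5, the 4 ligands Cxcl1, Cxcl2, Cxcl10 and Cxcl16 were lowest in stroke A among stroke libraries. All 4 were highest in stroke C, with no test. Of 14 recovered inducers and NF-kB regulators 6 had the same extremes, namely Il6, Il1b, Zfp36, Myd88, Nfkb1 and Nfkb2, beside 27.4% of all 7994 recovered genes. The order was not particular to inducers: 4 of 7 fibroblast and meninges markers and 4 of 9 choroid plexus markers had it. It was seen in 1 of 7 mural cell and 1 of 5 neutrophil markers. Il6 and Il1b encode cytokines that act upstream of many chemokines. Il6 had 1.73, 15 and 53.7 normalized counts in stroke A, B and C, against 3.18 and 1.36 in sham. Il1b had 3.46, 13.3 and 44.8 against 4.23 and 5.45. In stroke A both lay within or below the range of sham. Tnf did not follow that order, with 12.1, 19.4 and 17.9 in stroke against 1.06 and 0 in sham (log2 fold change 4.80, SE 1.68, adjusted p = 0.144).

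Of the 15 tested inducers and NF-kB regulators, Zfp36 and Relb rose, none fell, and 14 had a positive fold change, with a median log2 fold change of 0.67. Over all tested genes 0.775% were called higher and 47.2% had a positive fold change. Zfp36, which encodes tristetraprolin, a protein that destabilises cytokine and chemokine messenger RNA, had 263, 368 and 421 in stroke against 160 and 83.1 in sham (log2 fold change 1.52, SE 0.39, adjusted p = 0.0117). Relb, an NF-kB subunit, had 221, 194 and 207 against 105 and 61.3 (log2 fold change 1.31, SE 0.36, adjusted p = 0.0225). Stroke A was thus the highest stroke library for Relb and the lowest for the 4 ligands. Nfkbia and Rela, the most abundant uncalled regulators, differed by 0.56 (SE 0.28) and 0.35 (SE 0.33) on the log2 scale. These genes were listed with earlier results of these data known.

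**Figure D5:**
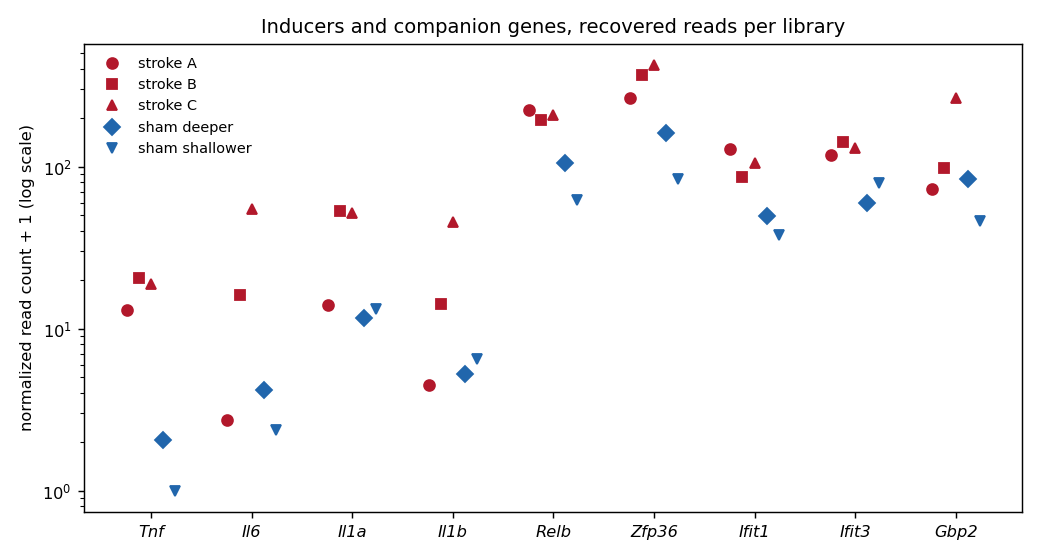
Normalized read counts plus 1 (vertical axis, log scale) of 9 genes from the inducer and interferon lists in each library (red, stroke; blue, sham). Il6 and Il1b lie as low in stroke A as in sham, while Relb and Zfp36 are higher in all 3 stroke libraries than in both sham libraries.

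The remaining ligands and receptors of these families were rare or showed no called difference. Of 17 further genes listed, Xcl1, Xcr1 and Cxcl15 were at 0, 12 had reads but no adjusted p, and Ackr1 and Cx3cr1 were tested. Ackr1, a decoy receptor for chemokines, had 857, 819 and 784 in stroke against 636 and 691 in sham, without overlap (log2 fold change 0.31, SE 0.20, adjusted p = 0.698). Cxcr2, the receptor of CXCL1 and CXCL2 on neutrophils, had 1.73, 7.96 and 10.8 against 1.06 and 1.36. Its counts were lowest in stroke A and highest in stroke C, as for its ligands. Cxcl5, a neutrophil attractant also read by CXCR2, had 3.46, 7.96 and 12.5 against 3.18 and 5.45, and Cxcl3 had 0, 0.884 and 2.69 against 0 and 0. Cxcr3, the receptor of CXCL9 and CXCL10, had 2.59, 1.77 and 0.896 against 2.12 and 0.

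Of the markers of cells these ligands attract, the neutrophil and T cell sums overlapped between the groups, and the monocyte and macrophage sum did not. The 10 neutrophil markers, all recovered, summed to 151 to 230 normalized counts in stroke and to 232 and 110 in sham, with 0 of 4 tested markers called, Ly6g at 1 read in all libraries together and none of the 10 at 0. The 9 recovered T and NK cell markers summed to 135 to 402 in stroke and 321 and 327 in sham, most of it Cd4, with Nkg7 at 0. The 10 monocyte and macrophage markers summed to 526 to 769 in stroke, above 501 and 373 in sham, and 0 of 6 tested were called. Mrc1 and Lyz2 had the highest means of that list, 208 and 126, and did not overlap between groups. Ccr2 did overlap, with 5.19, 8.84 and 11.6 in stroke against 7.41 and 5.45 in sham. Chil3 overlapped as well, and Ly6c2 had a mean of 0.876, so the sum does not show that monocytes entered. The part of these cell types in the chemokine values was not tested. In these bulk libraries, more cells of a type and more RNA per cell cannot be told apart. Of 10 tested mural cell markers, the contractile genes Acta2, Tagln and Myl9 rose. The 7 recovered markers summed to 1809 to 2081 in stroke against 781 and 1244 in sham. That sum leaves out Rgs5, Vtn and Pdgfrb, whose reads were not recovered. In the authors' deposited table these differed by 0.27 (SE 0.36), 0.20 (SE 0.36) and 0.05 (SE 0.22) on the log2 scale. The part of mural cells in the values of Ackr3 and Cxcl12, which vessels also express, was not tested.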

How the data were processed

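Libraries of 2 groups were compared, 2 sham and 3 stroke. The submitters' processing notes name STAR 2.5.2b, featureCounts 1.5.1, DESeq2 1.14.1 and build GRCm38. Per the labels' protocols, libraries were made with a stranded mRNA kit. Which annotation and strand setting were used is not given in the sources used here. For every gene the authors deposited, per the file headers, a mean signal in normalized counts, a log2 fold change with its SE, a Wald score, a p-value and a Benjamini-Hochberg adjusted p-value. Those deposited tests are the main result, at a threshold of 0.05. The edgeR test named as a fallback was not used, since no counts per library are listed.

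The fold change was read as stroke over sham because genes with 1 read gave 5 means, 3 with positive and 2 with negative fold changes. These means gave the size factors, refined on 4670 genes. The authors' DESeq2 fit was then rebuilt in numba 0.67.0 (Python 3.11.15), and 5 whole reads were accepted where a single set gave the deposited mean, SE and fold change (to within 6e-10). This held for 8020 of 8022 genes tried, with means of 5 to 150, plus listed genes up to 500 and 4 others. On simulated rows with means up to 150, 300 of 300 were recovered rightly. Of 300 rows with a shifted mean, also up to 150, 0 were accepted. Genes with higher means were not checked in this way, among them Cxcl12, Cxcl14, Ackr3, Cx3cr1, Ackr1, Zfp36 and Relb. For Cxcl12 and Cxcl14 the search kept to sham sums within 1.2% of that implied by the fold change. For other genes the limits were wider, and only genes with a low group mean were searched over all sums. A single set is thus single within these limits.

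Recovered reads entered limma 3.58.1 (R 4.3.3) as log2(normalized reads + 1), with trend and robust variance. On simulated reads for 7948 genes of this comparison it called 35 of 100 genes changed 4-fold, 68 of 100 changed 8-fold and 4 unchanged genes. The simulated libraries of a group shared a common mean per gene, without the marker difference between the real sham libraries. These rates therefore need not hold for the real libraries, where 0 of 7948 genes were called. Alternatives were other adjustment sets, a test against a fold of 1.5, pseudocounts of 0.5 and 5, another scaling and each library left out. Members and lists were chosen with earlier results of these data known. All members are named, and of each pathway list the called genes and up to 2 uncalled genes by mean. The count of genes lowest in stroke A and highest in stroke C was added after the values were seen. Listed genes named besides (Il6, Il1b, Tnf, Myd88, Nfkb1, Nfkb2, Ifit1, Gbp2, Rgs1, Rgs2, Adam17, Ifng, Ifnb1, untested relatives and markers) were chosen after their values were seen. Exon lengths and positions are from GENCODE M21, which held 51633 of the 51912 gene IDs.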

Additional observations from a re-analysis of the deposited data

How the results depend on the processing

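No member passed in the main test. None passed with p-values adjusted over all rows or over rows with a mean of at least 5 CPM (4 members left). None passed against a fold of 1.5, nor in limma with pseudocounts of 1, 0.5 and 5 or with the other scaling. The test against a fold of 1.5 gives no smaller p-value than the main test, so it could add no call. The rows above 5 CPM leave out Cxcl1, Cxcl2, Cxcl10 and Cxcl16, the members with an unadjusted p below 0.05 in the main test. All genes called numbered 272 in the main test, 187 over all rows, 142 above 5 CPM, 27 against the fold of 1.5 and 0 in limma, so limma's lack of a call does not tell members apart from other genes. Leaving out each library in turn in limma called 0 to 1 members and 0 to 1752 genes (1752 without the deeper sham, 202 without the shallower). The 1 was Cxcl14 without the deeper sham (0.84, adjusted p = 0.00576). Of 83 recomputed values with an adjusted p in both tests, 78 kept direction and side of the threshold and 4 reversed. A further 19, without an adjusted p in one of the tests, kept their direction. Both counts include the other adjustment sets and the test against a fold of 1.5. Those settings reuse the authors' fold change, so direction could not turn there. The reversals were Cxcl12 with the other scaling (0.20), without stroke A (0.0143) and without the shallower sham (0.000107), and Cxcl14 without the shallower sham (-0.149); the cause was not tested. A lone sham library is assumed in these fits to vary like the stroke libraries. Adjusted p-values over the alternatives, the main test aside, ran from 0.0576 to 0.976 for Cxcl1 and from 0.129 to 0.976 for Cxcl2. Leave-one-out differences ran from 2.66 to 4.09 for Cxcl1, 2.41 to 4.18 for Cxcl2, -0.17 to 0.0143 for Cxcl12, 1.32 to 2.75 for Cxcl10 and 0.49 to 1.78 for Cxcl16. No paired analysis was possible because nothing ties the recovered libraries to the replicate numbers in the labels. Cx3cl1 and Cxcl9 entered no limma fit.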

Other observations

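Microglial genes did not share 1 order over the libraries. Cx3cr1, the receptor of CX3CL1, was highest in stroke C, at 1165 normalized counts against 404 and 545 in the other stroke libraries. P2ry12, a purinergic receptor of resting microglia, was lowest of the stroke libraries there, at 241 against 439 and 507. Siglech, another microglial receptor, had 229, 232 and 106 in stroke A, B and C, and Tmem119 had 249, 349 and 170. In sham all 4 genes were higher in the deeper library, with 906 and 327 for Cx3cr1 and 421 and 193 for P2ry12. These genes were picked after their values were seen.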
